A study of Mus musculus with 14 samples.

Results

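The interleukin-6 family of cytokines and the Stat3 signaling chain were examined in the brain of cortistatin-deficient and wild-type mice after ischemic stroke. The 10 genes, chosen by symbol among the 46904 genes of the expression table, were the ligands Osm, Il6, Lif and Clcf1, the receptor chains Osmr, Il6ra, Il6st and Lifr, the transcription factor Stat3 and its feedback inhibitor Socs3. All 10 were listed once and all 10 passed the filter on low values (above 0 in at least 2 libraries).

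RNA was sequenced from whole contralateral (CL) and ischemic (MCAO) hemispheres of male mice aged 12 weeks, collected 48 h after the middle cerebral artery had been occluded for 20 min. The wild-type mice (Cort+/+) gave 3 CL and 3 MCAO libraries, the latter numbered 2, 3 and 4. Mice constitutively lacking the cortistatin gene (Cort-/-), on a C57BL/6J background, gave 3 CL and 5 MCAO libraries. The CL hemisphere thus came from operated animals of either genotype, no unoperated brain was analysed here, and all genotype comparisons share the operation. The deletion was constitutive, and the hemispheres are mixtures of all brain cell types, so more cells of a type and more RNA per cell cannot be told apart.

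Members of this cytokine family bind a ligand-specific receptor chain together with the shared chain encoded by Il6st. Janus kinases attached to the receptors then phosphorylate Stat3, which enters the nucleus and switches on its target genes, among them Socs3, whose protein blocks the receptor complex. In the injured brain the pathway is known for driving the reactive state of astrocytes and for its ties to microglia and infiltrating leukocytes. Transcript levels do not measure phosphorylated Stat3, the active form.

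The depth was 25991112 to 43034545 reads per library, and the shallowest was Cort-/- MCAO replicate 3, followed by Cort+/+ MCAO replicate 4 (31208139 reads). Reads of Cort numbered 64 to 139 in the Cort+/+ libraries and 0 to 4 in the Cort-/- libraries, as the genotype labels state. The labelled tissue, brain, was borne out by 5 neuronal markers, which summed to 1493 to 2072 RPKM in every library. The summed level of 5 microglial markers was 87.3 to 103 RPKM (read number scaled to gene length and library size) in the CL and 115 to 196 RPKM in the MCAO libraries of both genotypes. Among the MCAO libraries, Cort+/+ replicate 4 (115 RPKM) and Cort-/- replicate 3 (132 RPKM) held the lowest microglial sums. These libraries also held low levels of the pathway, and results are given without them where that changed a call. Leaving out the lowest MCAO or the highest CL library of a gene widens its difference by construction, so a pass gained this way is no support. In the Cort-/- MCAO group no member value was an outlier by Dixon's gap over range (at most 0.569, critical value 0.71).

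The members lie on 6 chromosomes, and several are neighbours. On GRCm39, in the GENCODE M39 annotation, Osm (chromosome 11, 4186420 to 4191026, plus strand) ends 16.5 kb before the start of Lif (4207557 to 4222514, plus strand). Osmr (chromosome 15, 6843053 to 6904450, minus strand) and Lifr (7120095 to 7226970, plus strand) are 215.6 kb apart. Stat3 (chromosome 11, 100775924 to 100830450, minus strand) overlaps the oppositely transcribed Stat5a, and Socs3 lies on the same chromosome (117856905 to 117860898, minus strand). Clcf1 is on chromosome 19 (4264292 to 4273546), Il6 on chromosome 5 (30218112 to 30224979), Il6ra on chromosome 3 (89771366 to 89820719) and Il6st on chromosome 13 (112600604 to 112646620). The kit preserved strand, but whether strand was used in counting is not given in the sources used here, so reads of overlapping genes may be shared.

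The promoters of Socs3, Stat3 and Osmr are shown because the levels of these genes followed each other closely across libraries. Each runs 5′ to 3′ from 250 bases before to 50 bases after the RefSeq start of the gene, and was placed on GRCm39 by an exact match, at chr11:117860143-117860442 (minus strand) for Socs3, chr11:100830317-100830616 (minus strand) for Stat3 and chr15:6903745-6904044 (minus strand) for Osmr. Capitals mark a match to TTCNNNGAA, the palindromic motif of STAT proteins, where N is any base.
Socs3: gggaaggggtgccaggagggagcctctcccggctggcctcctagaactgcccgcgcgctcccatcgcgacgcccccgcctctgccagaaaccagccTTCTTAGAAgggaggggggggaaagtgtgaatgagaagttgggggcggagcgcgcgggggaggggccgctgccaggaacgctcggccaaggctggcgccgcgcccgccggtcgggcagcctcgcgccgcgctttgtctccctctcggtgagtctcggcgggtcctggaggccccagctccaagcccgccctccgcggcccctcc
Stat3: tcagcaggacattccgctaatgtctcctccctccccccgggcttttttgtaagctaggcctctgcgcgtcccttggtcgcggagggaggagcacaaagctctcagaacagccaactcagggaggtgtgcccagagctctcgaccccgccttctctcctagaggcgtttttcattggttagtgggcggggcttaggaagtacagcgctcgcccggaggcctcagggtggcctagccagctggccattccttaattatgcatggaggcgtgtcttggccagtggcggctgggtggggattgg
Osmr: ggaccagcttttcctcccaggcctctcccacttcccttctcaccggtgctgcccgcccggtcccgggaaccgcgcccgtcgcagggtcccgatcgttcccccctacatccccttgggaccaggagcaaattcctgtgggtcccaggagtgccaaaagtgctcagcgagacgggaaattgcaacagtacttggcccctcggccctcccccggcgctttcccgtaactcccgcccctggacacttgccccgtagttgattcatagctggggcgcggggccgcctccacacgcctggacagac
Among the 8 members with a promoter in the RefSeq table, only Socs3 held this motif, 1 copy starting 154 bases before the RefSeq start. RefSeq and GENCODE place the starts differently. The RefSeq start lies 706 bases inside the GENCODE gene for Socs3, 656 for Osmr and 84 for Stat3, counted from the outermost GENCODE start given above, so that the motif of Socs3 lies 552 bases inside the GENCODE gene. The motif occurs in 2726 of 32851 promoters of that table (8.3%), on either strand. The AP-1 motif TGACTCA was found in the promoters of Lif and Il6, against 5.2% of all promoters. A match describes the letters only and is no evidence of binding. Osm and Clcf1 were not in the table.

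Levels per gene length placed Stat3 first in the CL hemispheres, with a mean of 10.2 ± 1.73 RPKM (SD, n = 6 libraries of both genotypes). It was followed by Il6st (8.19 ± 0.905), Lifr (5.14 ± 0.407), Socs3 (1.75 ± 0.571), Osmr (1.12 ± 0.407), Il6ra (0.830 ± 0.150) and Clcf1 (0.555 ± 0.164 RPKM). The ligands Lif (0.208 ± 0.0966), Osm (0.0428 ± 0.0206) and Il6 (0.00784 ± 0.00610 RPKM) were at the low end. The shared and leukemia inhibitory factor receptor chains were thus abundant in the brain, whereas the ligand transcripts were rare. Ranges overlapped between Stat3 and Il6st, and between each neighbouring pair from Socs3 to Lif. They did not overlap between Il6st and Lifr, Lifr and Socs3, Lif and Osm, or Osm and Il6.

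In the MCAO hemispheres the order changed in the middle of the list. Socs3 (5.20 ± 2.49 RPKM, n = 8) now stood beside Lifr (4.94 ± 0.322), and exceeded it in 3 of 8 libraries. Clcf1 (3.20 ± 1.00) and Osmr (2.89 ± 1.35 RPKM) overlapped, with Clcf1 higher in 4 of 8 libraries, and Osmr stood above Il6ra (1.08 ± 0.165 RPKM) in all 8. The values of each member in every library are plotted by group.

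**Figure D1:**
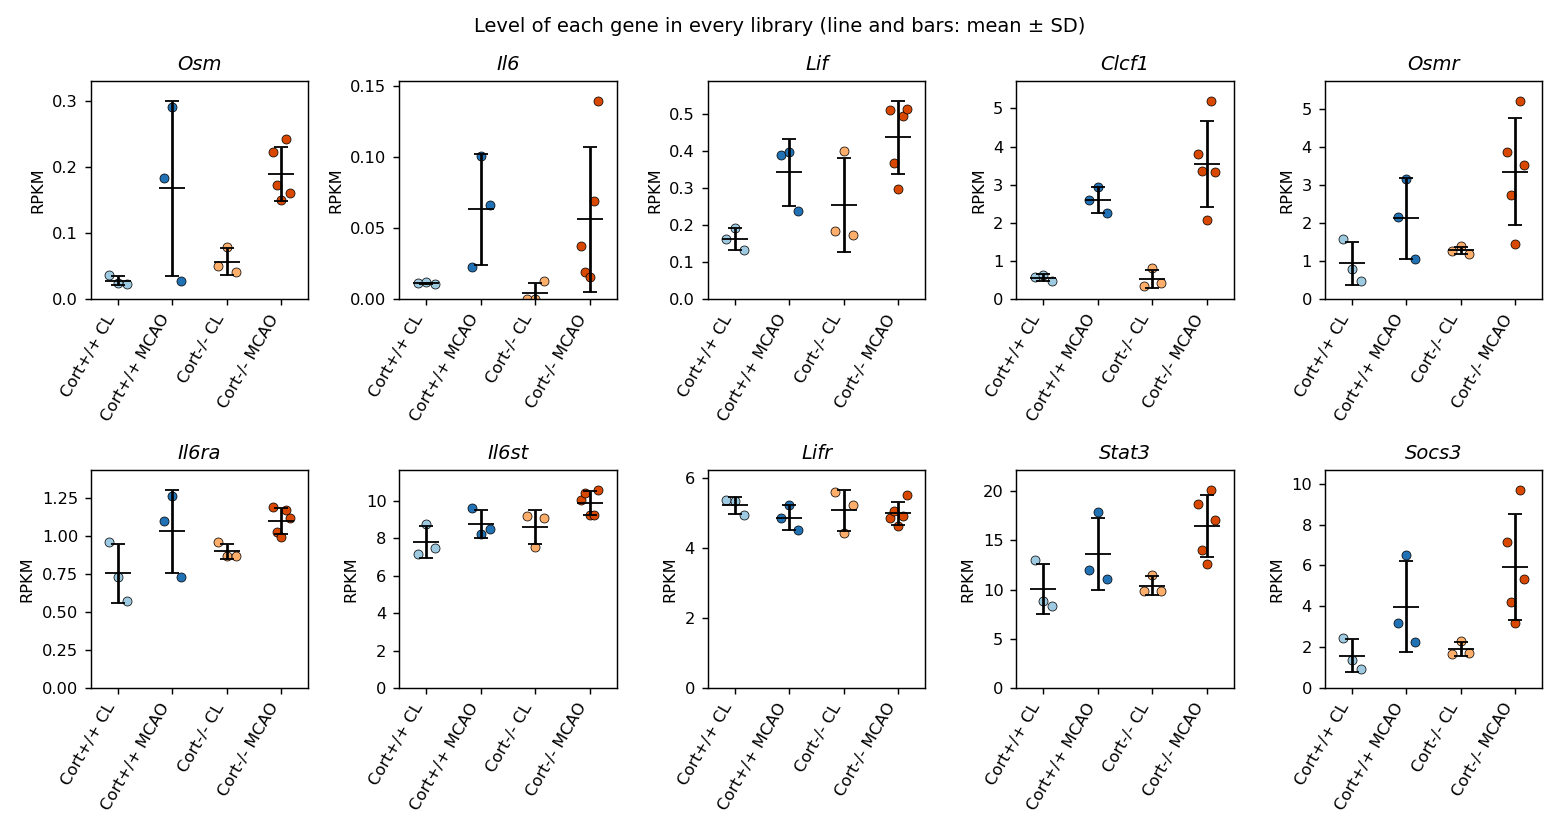
Level of each of the 10 genes in RPKM (vertical axes, linear and starting at 0) in the 14 libraries, grouped by genotype and hemisphere, with the mean and SD of each group drawn as a line and bars. Clcf1 in all 8 MCAO libraries lay above all 6 CL libraries, while the levels of Lifr overlapped in every group.

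To establish which parts of the pathway differed between the hemispheres, MCAO was compared with CL within each genotype and as the average of both genotypes. The mean was higher in MCAO hemispheres of each genotype for 9 of 10 members, the exception being Lifr. In Cort+/+ mice 0 of 10 passed an adjusted p of 0.05 in limma (0.0108% of the 46102 genes tested passed, 0.00868% as higher in MCAO), 5 had an unadjusted p under 0.05 (7.87% of all genes), and limma voom on read counts called 1 (0.124% of all genes). In Cort-/- mice Clcf1 was the 1 member that passed (1.72% of all genes). Averaged over genotypes, Clcf1, Socs3 and Osm rose, 3 of 10 against 3.43% of all genes. An unadjusted p under 0.05 was reached by 8 of 10 members in Cort-/- mice (12.7% of all genes) and by 9 of 10 averaged (14.9%). The median log2 fold change of the members was 0.63 in Cort+/+ mice, 0.64 in Cort-/- mice and 0.61 averaged, beside 0.00 over all genes.

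The ligand Clcf1 (cardiotrophin-like cytokine factor 1), which signals through the ciliary neurotrophic factor receptor, had the largest difference of the 10. In Cort+/+ mice its level was 0.597, 0.642 and 0.479 RPKM in the CL libraries and 2.60, 2.93 and 2.26 RPKM in the MCAO libraries. The Cort-/- libraries held 0.361, 0.814 and 0.435 RPKM in CL and 3.82, 3.35, 2.07, 5.20 and 3.35 RPKM in MCAO libraries. Every MCAO library was thus above every CL library, in both genotypes. The log2 fold change was 2.00 ± 0.29 (SE) in Cort+/+ mice (limma adjusted p = 0.0584), 2.53 ± 0.26 in Cort-/- mice (adjusted p = 0.00304) and 2.27 ± 0.19 averaged (adjusted p = 0.000305). The averaged and the Cort-/- calls held in all 14 fits that left out a library. The Cort+/+ call was borderline, since the gene passed in 4 of those 14 fits, and leaving out Cort+/+ MCAO replicate 4 gave an adjusted p of 0.0215, leaving out Cort-/- MCAO replicate 3 one of 0.0146.

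Osm encodes oncostatin M, a cytokine released mainly by myeloid cells. Its level was 0.0364, 0.0255 and 0.0236 RPKM in Cort+/+ CL libraries and 0.184, 0.291 and 0.0284 RPKM in MCAO libraries. The last of these, MCAO replicate 4, held 2 reads and lay within the CL range. In Cort-/- mice the CL libraries held 0.0511, 0.0794 and 0.0408 RPKM and the MCAO libraries 0.222, 0.172, 0.150, 0.242 and 0.161 RPKM, without overlap. Osm rests on few reads, 2 to 6 per CL library and 2 to 27 per MCAO library. Summed over libraries, the read ratio of MCAO to CL was 6.31 in Cort+/+ mice (95% interval 2.82 to 16.6) and 3.38 in Cort-/- mice (1.88 to 6.61), intervals that cover counting error only. On the log2(RPKM + 0.1) scale, which understates low genes, Osm rose by 0.90 ± 0.22 averaged over genotypes (limma adjusted p = 0.0391), with 0.92 ± 0.32 in Cort+/+ mice (adjusted p = 0.436) and 0.88 ± 0.29 in Cort-/- mice (adjusted p = 0.171). The averaged call was lost in 12 of 14 fits without 1 library, with an adjusted p between 0.0549 and 0.101. It held only where the left-out library was MCAO replicate 4 of Cort+/+ or MCAO replicate 3 of Cort-/- mice. Without Cort+/+ MCAO replicate 4 the gene also passed within each genotype (adjusted p = 0.0279 in Cort+/+ and 0.0320 in Cort-/- mice).

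Il6, the founding ligand of the family, was close to the detection limit. The 3 Cort+/+ CL libraries held 1 read each and the MCAO libraries 2, 10 and 5 reads. The Cort-/- CL libraries held 0, 0 and 1 reads, and the MCAO libraries 4, 2, 1, 7 and 13 reads. A count of 0 allows up to 3 reads, so single CL libraries do not set the level of Il6. The read ratio of MCAO to CL was 5.69 in Cort+/+ mice (95% interval 1.65 to 30.3) and 13.97 in Cort-/- mice (2.30 to 572), counting error only. The averaged difference of 0.53 ± 0.17 on the log2(RPKM + 0.1) scale, which understates low genes, did not pass (limma adjusted p = 0.118). Of the alternatives only limma voom on read counts called Il6. Its log2 fold change there was 2.15 averaged (adjusted p = 0.0173, 1 of 9 alternatives) and 2.46 in Cort-/- mice (0.0492, 1 of 10). None of the 14 fits without 1 library called it.

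Lif, which acts through Lifr and Il6st, held 0.163, 0.193 and 0.132 RPKM in Cort+/+ CL and 0.391, 0.399 and 0.239 RPKM in MCAO libraries, without overlap. In Cort-/- mice the CL libraries held 0.186, 0.401 and 0.175 RPKM and the MCAO libraries 0.510, 0.369, 0.299, 0.497 and 0.515 RPKM. Here CL replicate 2 lay above 2 of the MCAO libraries. The averaged difference was 0.69 ± 0.19 on the log2 scale (limma adjusted p = 0.0685), and without Cort-/- CL replicate 2 it was 0.83 (adjusted p = 0.0269). Without Cort-/- MCAO replicate 3 it was 0.74 (adjusted p = 0.0448), and without Cort+/+ MCAO replicate 4 it was 0.78 (0.0464). With all libraries kept, Lif passed in 2 of 9 alternative limma fits, array weights (adjusted p = 0.0415) and voom (0.013).

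Of the receptors, Osmr, the ligand-binding chain for oncostatin M, had the largest difference. Its level was 1.58, 0.790 and 0.483 RPKM in Cort+/+ CL and 2.15, 3.16 and 1.05 RPKM in MCAO libraries. The Cort-/- libraries held 1.26, 1.39 and 1.20 RPKM in CL and 3.87, 2.73, 1.45, 5.21 and 3.52 RPKM in MCAO libraries. The groups overlapped in Cort+/+ mice, where CL replicate 1 exceeded MCAO replicate 4, and were apart in Cort-/- mice, where MCAO replicate 3 stood just above the highest CL library. The averaged log2 fold change of 1.15 ± 0.31 (95% interval 0.47 to 1.83) narrowly missed the threshold (limma adjusted p = 0.0678). It passed without Cort-/- MCAO replicate 3 (adjusted p = 0.0207), without Cort+/+ MCAO replicate 4 (0.0283) and without Cort+/+ CL replicate 1 (0.0333). With all libraries kept it passed in 3 of 10 alternative limma fits. These were a filter at a mean of 0.5 RPKM (adjusted p = 0.0309), array weights (0.0343) and voom (0.0217).

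The other receptor chains differed less. Il6st encodes the signal-transducing chain shared by the family. It averaged 7.80 ± 0.849 RPKM (SD, n = 3) in Cort+/+ CL, 8.76 ± 0.736 (n = 3) in Cort+/+ MCAO, 8.59 ± 0.928 (n = 3) in Cort-/- CL and 9.89 ± 0.641 RPKM (n = 5) in Cort-/- MCAO libraries. Its averaged log2 fold change was 0.19 ± 0.07 (limma adjusted p = 0.173). Il6ra, the interleukin-6 binding chain, was at 0.758 ± 0.194 RPKM (n = 3) in Cort+/+ CL and 1.03 ± 0.275 (n = 3) in MCAO, and at 0.902 ± 0.0504 (n = 3) in Cort-/- CL and 1.10 ± 0.0865 RPKM (n = 5) in MCAO libraries, an averaged log2 fold change of 0.33 ± 0.13 (limma adjusted p = 0.232). Lifr was level across the groups, between 4.44 and 5.58 RPKM in all 14 libraries, and its averaged log2 fold change of −0.06 had a 95% interval of −0.19 to 0.07.

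Stat3 itself held 13.01, 8.82 and 8.37 RPKM in Cort+/+ CL and 12.0, 17.8 and 11.1 RPKM in MCAO libraries. Cort-/- mice had 9.84, 11.5 and 9.84 RPKM in CL and 18.7, 14.001, 12.6, 20.1 and 17.0 RPKM in MCAO libraries. As for Osmr, the Cort+/+ groups overlapped through CL replicate 1 and the Cort-/- groups did not overlap. The averaged log2 fold change was 0.54 ± 0.14 (limma adjusted p = 0.0616), and the gene passed without Cort+/+ CL replicate 1 (adjusted p = 0.0270), without Cort-/- MCAO replicate 3 (0.0326) and when Cort+/+ MCAO replicate 4 was left out (0.0448). With all libraries kept, Stat3 passed in 3 of 10 alternative limma fits. These were the filter at a mean of 0.5 RPKM (adjusted p = 0.0277), array weights (0.0362) and voom (0.0147).

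Socs3, the feedback inhibitor, held 2.47, 1.36 and 0.945 RPKM in Cort+/+ CL and 3.19, 6.50 and 2.28 RPKM in MCAO libraries. Cort-/- mice had 1.67, 2.30 and 1.73 RPKM in CL and 7.13, 4.23, 3.17, 9.71 and 5.35 RPKM in MCAO libraries. Socs3 rose by 1.37 ± 0.29 on the log2 scale averaged over genotypes (limma adjusted p = 0.0220), with 1.24 ± 0.44 in Cort+/+ mice (adjusted p = 0.440) and 1.50 ± 0.39 in Cort-/- mice (adjusted p = 0.0798). The averaged call was lost in 5 of 14 fits, those without Cort-/- CL replicates 1 or 3, Cort+/+ CL replicates 2 or 3, or Cort+/+ MCAO replicate 3, at adjusted p values of 0.0521 to 0.0624. Within Cort-/- mice the gene passed without MCAO replicate 3 (adjusted p = 0.0369).

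**Figure D2:**
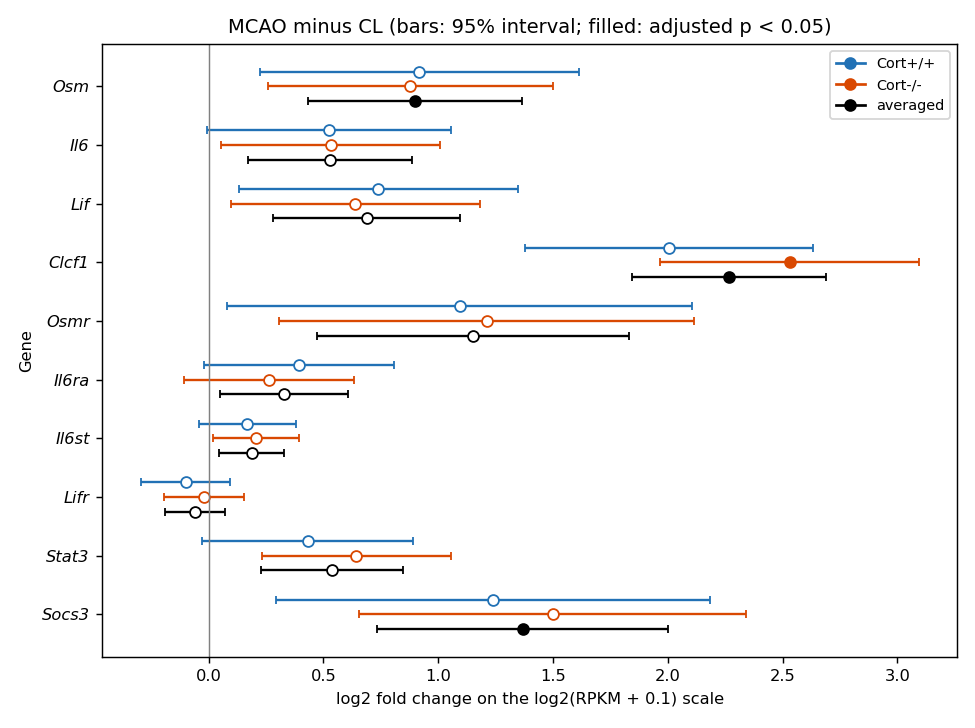
Log2 fold change between MCAO and CL hemispheres for each gene (horizontal axis, log2(RPKM + 0.1) scale) in Cort+/+ mice (n = 3 and 3), Cort-/- mice (n = 3 and 5) and averaged, with 95% intervals as bars and filled points at an adjusted p under 0.05. Clcf1 lies farthest right, Lifr is centred on 0, and the intervals of the genotypes overlap for every gene.

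Separation of the groups was also counted without a model. In Cort+/+ mice all MCAO libraries exceeded all CL libraries for 3 of 10 members (Il6, Lif and Clcf1), against 5.73% of all genes. In Cort-/- mice they did so for 8 of 10 (all but Lif and Lifr), against 4.85% of all genes. For Il6 the separation rests on single reads. In Cort-/- mice CL replicate 3 and MCAO replicate 3 held 1 read each, apart only after scaling to depth (0.0127 and 0.0156 RPKM). In Cort+/+ mice each CL library held 1 read and the lowest MCAO library 2. Il6st was apart narrowly in Cort-/- mice, at 9.18 RPKM in the highest CL and 9.21 RPKM in the lowest MCAO library. No member was lower without overlap, against 4.11% and 4.27%. Groups that are apart return the smallest p an exact permutation test allows by construction, so no such p is given.

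The level of the feedback inhibitor was also set against that of its activator. The ratio of Socs3 to Stat3 in RPKM was 0.152 ± 0.0386 (SD, n = 3) in Cort+/+ CL and 0.278 ± 0.0803 (n = 3) in MCAO libraries, and 0.182 ± 0.0161 (n = 3) in Cort-/- CL and 0.347 ± 0.0888 (n = 5) in MCAO libraries. All MCAO libraries were above all CL libraries within each genotype, with a log2 change of the ratio of 0.86 in Cort+/+ mice and 0.90 in Cort-/- mice. The ratio of Osmr to Lifr averaged 0.180 and 0.428 in Cort+/+ CL and MCAO libraries, and 0.257 and 0.670 in Cort-/- CL and MCAO libraries. Its log2 change was 1.29 in both genotypes, with 1 MCAO library of each genotype inside the CL range. These ratios were chosen after the values had been seen and were not tested.

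To ask whether cortistatin deficiency altered the pathway, Cort-/- and Cort+/+ mice were compared within each hemisphere. In the CL hemisphere 0 of 10 members passed in limma (0.0152% of all genes did, 0.00217% higher and 0.013% lower in Cort-/- mice). None had an unadjusted p under 0.05 (3.91% of all genes), and voom called 0 (0.0325%). In the MCAO hemisphere 0 of 10 passed (0.0174% of all genes, 0.00434% higher and 0.013% lower). None had an unadjusted p under 0.05 (3.82%), and voom called 0 (0.026%). With 10 members, counts of 0 are near these shares. All adjusted p values were 1.00. The mean was higher in Cort-/- MCAO hemispheres for 9 of 10 members, Il6 being the exception, and the median log2 difference was 0.26, beside −0.0021 over all genes. The groups overlapped in MCAO hemispheres for all 10 members (0.861% of all genes were higher and 1.56% lower in Cort-/- mice without overlap).

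The intervals leave room for sizeable differences either way. In MCAO hemispheres Osmr averaged 3.35 ± 1.39 RPKM (SD, n = 5) in Cort-/- and 2.12 ± 1.06 RPKM (n = 3) in Cort+/+ mice, a log2 difference of 0.65 with a 95% interval of −0.26 to 1.55. Socs3 averaged 5.92 ± 2.58 and 3.99 ± 2.22 RPKM, a difference of 0.59 (−0.26 to 1.43). Clcf1 averaged 3.56 ± 1.13 and 2.60 ± 0.337 RPKM, a difference of 0.39 (−0.17 to 0.95), and Stat3 16.5 ± 3.16 and 13.6 ± 3.66 RPKM, a difference of 0.28 (−0.13 to 0.69). For Lifr the interval was narrow, 0.04 (−0.14 to 0.21). In CL hemispheres the differences of Socs3, Osmr and Stat3 were 0.33 (−0.62 to 1.27), 0.53 (−0.48 to 1.54) and 0.07 (−0.39 to 0.53). Osm was the 1 member of 10 whose CL libraries did not overlap between genotypes, higher in Cort-/- mice at 3 to 6 against 2 to 3 reads (3.9% of all genes were higher and 2.35% lower without overlap), and its log2 difference of 0.28 had an unadjusted limma p of 0.393.

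The interaction, the difference between genotypes in the MCAO to CL change, passed for 0 of 10 members (0.00217% of all genes). None had an unadjusted p under 0.05 (3.31% of all genes), and voom called 0 (0% of all genes). The interaction was 0.53 (−0.32 to 1.37) for Clcf1, 0.26 (−1.01 to 1.53) for Socs3, 0.21 (−0.41 to 0.83) for Stat3, 0.12 (−1.24 to 1.47) for Osmr and −0.04 (−0.97 to 0.89) for Osm, in log2 units. That Clcf1 passed in Cort-/- and not in Cort+/+ mice therefore does not show that its change differed between them. Signs of the interaction changed when 1 library or another was left out for 8 of 10 members, all but Clcf1 and Stat3.

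**Figure D3:**
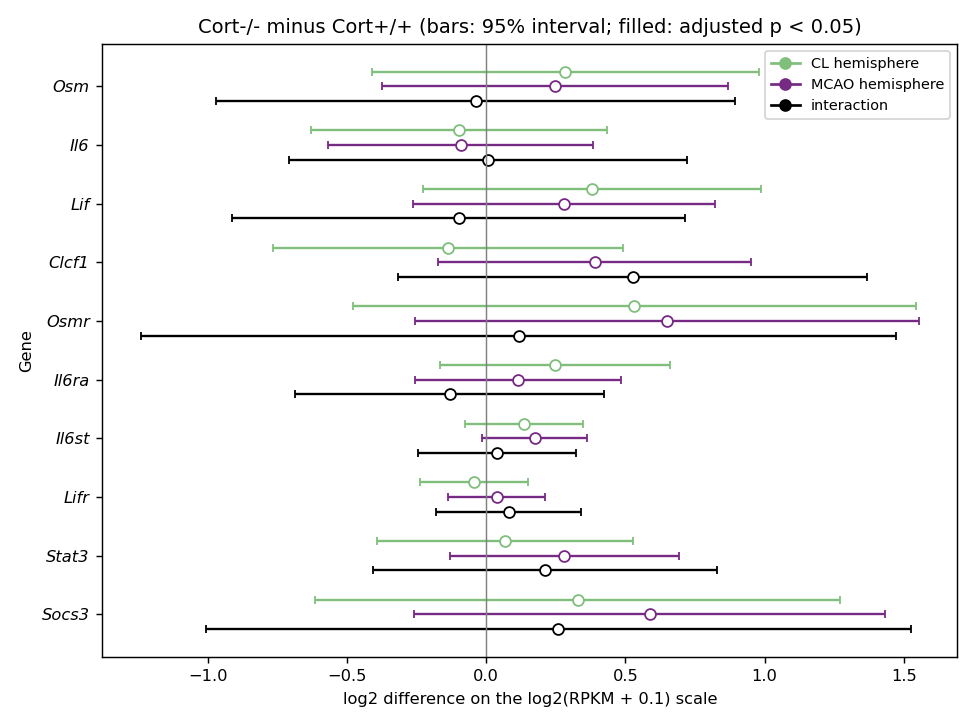
Log2 difference between Cort-/- and Cort+/+ mice for each gene (horizontal axis, log2(RPKM + 0.1) scale) in CL (n = 3 and 3) and MCAO hemispheres (n = 5 and 3), and the interaction, with 95% intervals as bars. No point is filled, since no gene reached an adjusted p under 0.05, and every interval contains 0.

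Libraries of 1 group differed from each other in the whole pathway at once. Cort-/- MCAO replicate 3 was the lowest of its group for 10 of 10 members. Cort+/+ MCAO replicate 3 was the highest of its group for 9 members and replicate 4 the lowest for 8. Cort+/+ CL replicate 3 was the lowest of its group for 9. The order of the microglial marker sums was alike, at 180.5, 169.9 and 115 RPKM in Cort+/+ MCAO replicates 3, 2 and 4, and at 132 RPKM in Cort-/- MCAO replicate 3 against 156 to 196 RPKM in the other libraries of that group. It was not particular to microglia. In the same Cort+/+ libraries the macrophage and monocyte sums were 23.1, 15.9 and 10.9 RPKM. The endothelial sums were 53.2, 49.4 and 47.6 RPKM, and the fibroblast sums 26.2, 23.8 and 22.1 RPKM. Cort-/- MCAO replicate 3 was the lowest of its group in each of these, at 16.5, 46.6 and 25.1 RPKM. The sums of the other lists did not follow this order in Cort+/+ MCAO libraries. The erythroid marker sum was 257 RPKM in Cort+/+ MCAO replicate 4 and 97.0 and 135 RPKM in replicates 3 and 2. It ran the other way in Cort-/- MCAO libraries, with the lowest sum in replicate 3 (87.4 RPKM) and the highest in replicate 4 (186 RPKM). In Cort+/+ CL libraries it was 125 to 330 RPKM. In limma 4 of 5 microglial markers, among them Tmem119, Cx3cr1 and Csf1r, and 1 of 5 macrophage and monocyte markers (Lyz2) rose in MCAO hemispheres averaged over genotypes. Of all genes 2.52% were called higher and 0.902% lower in that comparison. Also called higher were 2 of 5 astrocyte markers (Aqp4 and Aldh1l1), 2 of 5 endothelial markers (Cldn5 and Cdh5) and 1 of 5 fibroblast markers (Dcn). None of the neuronal, neutrophil, T cell, choroid plexus or erythroid markers passed, and no marker of any list was called lower. The summed level of the macrophage and monocyte markers was 4.49 to 13.9 RPKM in Cort+/+ CL and 10.9 to 23.1 RPKM in MCAO libraries, and 6.37 to 11.1 RPKM in Cort-/- CL and 16.5 to 50.5 RPKM in MCAO libraries. The 6 neutrophil markers summed to 2.26 to 3.97 RPKM in Cort+/+ CL, 2.32 to 4.50 in Cort+/+ MCAO, 4.29 to 8.53 in Cort-/- CL and 3.30 to 14.2 RPKM in Cort-/- MCAO libraries, the highest being replicate 4, which held the highest level of its group for 5 of 10 members. Of these markers Ly6g was at 0 in 7 of 14 libraries, and the other 5 were above 0 in all. The T cell markers summed to 0.986 to 1.89 RPKM over all libraries, with Trac above 0 in all 14 and the other 4 at 0 in 3 to 9 of them. The part of these cell types, or of depth, in the levels of the pathway was not tested.

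Socs3, Stat3 and Osmr followed each other across libraries, as the plots of Socs3 against 3 other members show. Over the 14 libraries and 15062 genes averaging 1 RPKM or more, the genes most like Socs3 in log2 level were Syngr2 (Pearson r = 0.991), Tnfrsf1a (0.986), Abcc3 (0.986), Stat3 (0.985) and Pros1 (0.985). Stat3 was thus the 4th of 15062 genes, and Osmr (r = 0.973) the 33rd. After group means had been subtracted, r with Socs3 remained 0.976 for Stat3 and 0.951 for Osmr. For Clcf1 r was 0.886, and 0.739 within groups. In contrast, Il6st had r = 0.495 with Socs3, and −0.31 within groups. The genes most like Osmr were B4galt1 (0.977), Il4ra (0.976), Syngr2 (0.976), Socs3 (0.973) and Lacc1 (0.972). These coefficients are a description, since the values of 1 point come from 1 library and share its depth and cell mixture.

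**Figure D4:**
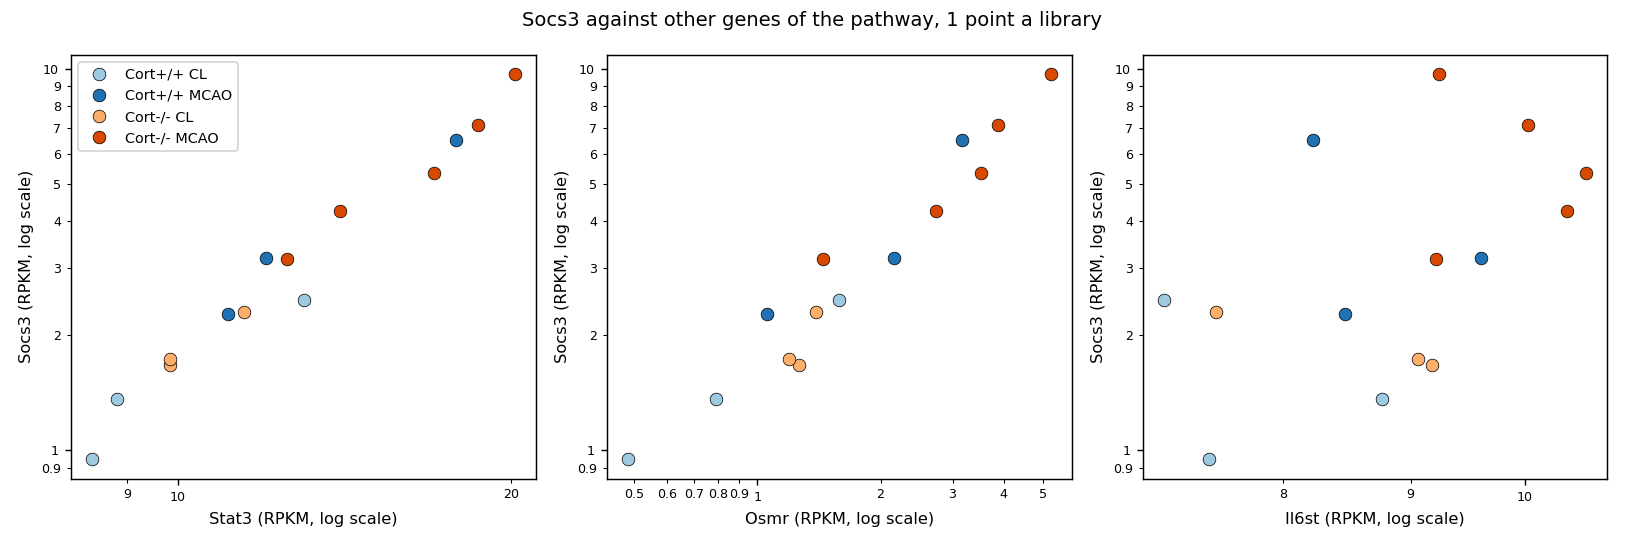
Level of Socs3 (vertical axes, RPKM, log scale) against Stat3, Osmr and Il6st (horizontal axes, RPKM, log scale), with 1 point for each of the 14 libraries, coloured by group. Points for Stat3 and Osmr fall along a line that runs through all 4 groups, and those for Il6st scatter.

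The wider pathway was followed with a list of other ligands, receptors, Janus kinases, STATs, inhibitors and Stat3 target genes, of which 53 of 55 were in the table and tested. In Cort+/+ mice 0 of 53 passed in limma (0.0108% of all genes did). An unadjusted p under 0.05 was reached by 10 (7.87% of all genes), and voom called 0 (0.124% of all genes). In Cort-/- mice 6 rose and none fell (1.34% of all genes were called higher and 0.382% lower). Averaged over genotypes 10 rose and none fell (2.52% and 0.902% of all genes). An unadjusted p under 0.05 was reached by 22 of 53 in Cort-/- mice (12.7% of all genes) and by 28 of 53 averaged (14.9%). The median log2 fold change of the list was 0.12 averaged, beside 0.00 over all genes. The Cort-/- count depended on single libraries. It was 12 without MCAO replicate 3 and 0 without CL replicate 1, CL replicate 3, MCAO replicate 1 or MCAO replicate 4.

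The Stat3 target genes held most of the calls, with 6 of 18 higher averaged over genotypes, against 2.52% of all genes. Their median log2 fold change was 0.74, and 17 of 18 were above 0. Timp1, an inhibitor of matrix metalloproteinases, averaged 0.757 ± 0.716 RPKM (SD, n = 3) in Cort+/+ CL and 4.82 ± 3.49 (n = 3) in MCAO, and 1.26 ± 0.962 (n = 3) in Cort-/- CL and 8.76 ± 5.74 RPKM (n = 5) in MCAO libraries, and rose by 2.61 ± 0.50 on the log2 scale (limma adjusted p = 0.0116). Gfap, the intermediate filament of reactive astrocytes, averaged 70.8 and 210.3 RPKM in Cort+/+ CL and MCAO libraries and 72.8 and 279.9 RPKM in those of Cort-/- mice. It rose by 1.84 ± 0.33 (limma adjusted p = 0.00842). Bcl3, a nuclear regulator of NF-kappaB, rose by 1.91 ± 0.36 (adjusted p = 0.0113), the cell cycle gene Ccnd1 by 0.71 ± 0.10 (adjusted p = 0.00370) and the growth regulator Myc by 0.68 ± 0.15 (adjusted p = 0.0271). Birc5, an inhibitor of apoptosis active in dividing cells, rose by 1.54 ± 0.24 (limma adjusted p = 0.00441) at a mean under 1 RPKM. Of these, Gfap, Ccnd1 and Birc5 also passed in Cort-/- mice alone. Some others on the list were near level. The ratio of MCAO to CL group means in Cort+/+ and Cort-/- mice was 1.12 and 1.03 for Junb, and 1.02 and 0.994 for Bcl2l1. It was 1.04 and 1.10 for Hif1a, and 0.886 and 1.06 for Vegfa.

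Among the signal transducers, Stat6, the STAT of interleukin-4, rose by 0.40 ± 0.08 (limma adjusted p = 0.0152). It also passed in Cort-/- mice. Of the 4 Janus kinases, Jak3, which is typical of leukocytes, rose by 0.54 ± 0.13 (limma adjusted p = 0.0402), where 2.52% of all genes were called higher. Of the others, Jak1 and Jak2 were level, with log2 fold changes of 0.01 (95% interval −0.06 to 0.09) for Jak1 and −0.03 (−0.13 to 0.08) for Jak2. Tyk2 averaged 3.83 and 4.08 RPKM in Cort+/+ CL and MCAO libraries and 3.98 and 4.01 RPKM in those of Cort-/- mice.

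Of 15 inhibitors, 1 rose averaged over genotypes (2.52% of all genes were called higher and 0.902% lower). Ptpn6, a tyrosine phosphatase of blood cells and microglia, averaged 1.62 and 3.66 RPKM in Cort+/+ CL and MCAO libraries and 1.67 and 4.62 RPKM in those of Cort-/- mice, a log2 fold change of 1.26 ± 0.20 (limma adjusted p = 0.00475). The median of the inhibitors was −0.06, and none fell. No other ligand (6 tested) or receptor (4 tested) of the family passed. Il11, the ligand with the largest difference, had an averaged log2 fold change of 1.03 ± 0.34 (limma adjusted p = 0.135), and Cntfr, the receptor chain that binds Clcf1, one of −0.18 ± 0.06 (adjusted p = 0.144) at 30.4 to 35.3 RPKM in the group means. Between genotypes and in the interaction 0 of 53 passed in limma (0.0152% of all genes did in CL, 0.0174% in MCAO and 0.00217% for the interaction). An unadjusted p under 0.05 was reached by 1 gene in each hemisphere (3.91% of all genes in CL, 3.82% in MCAO) and by none for the interaction (3.31%). Voom called 0 (0.0325%, 0.026% and 0% of all genes). These counts are near or below those shares.

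**Figure D5:**
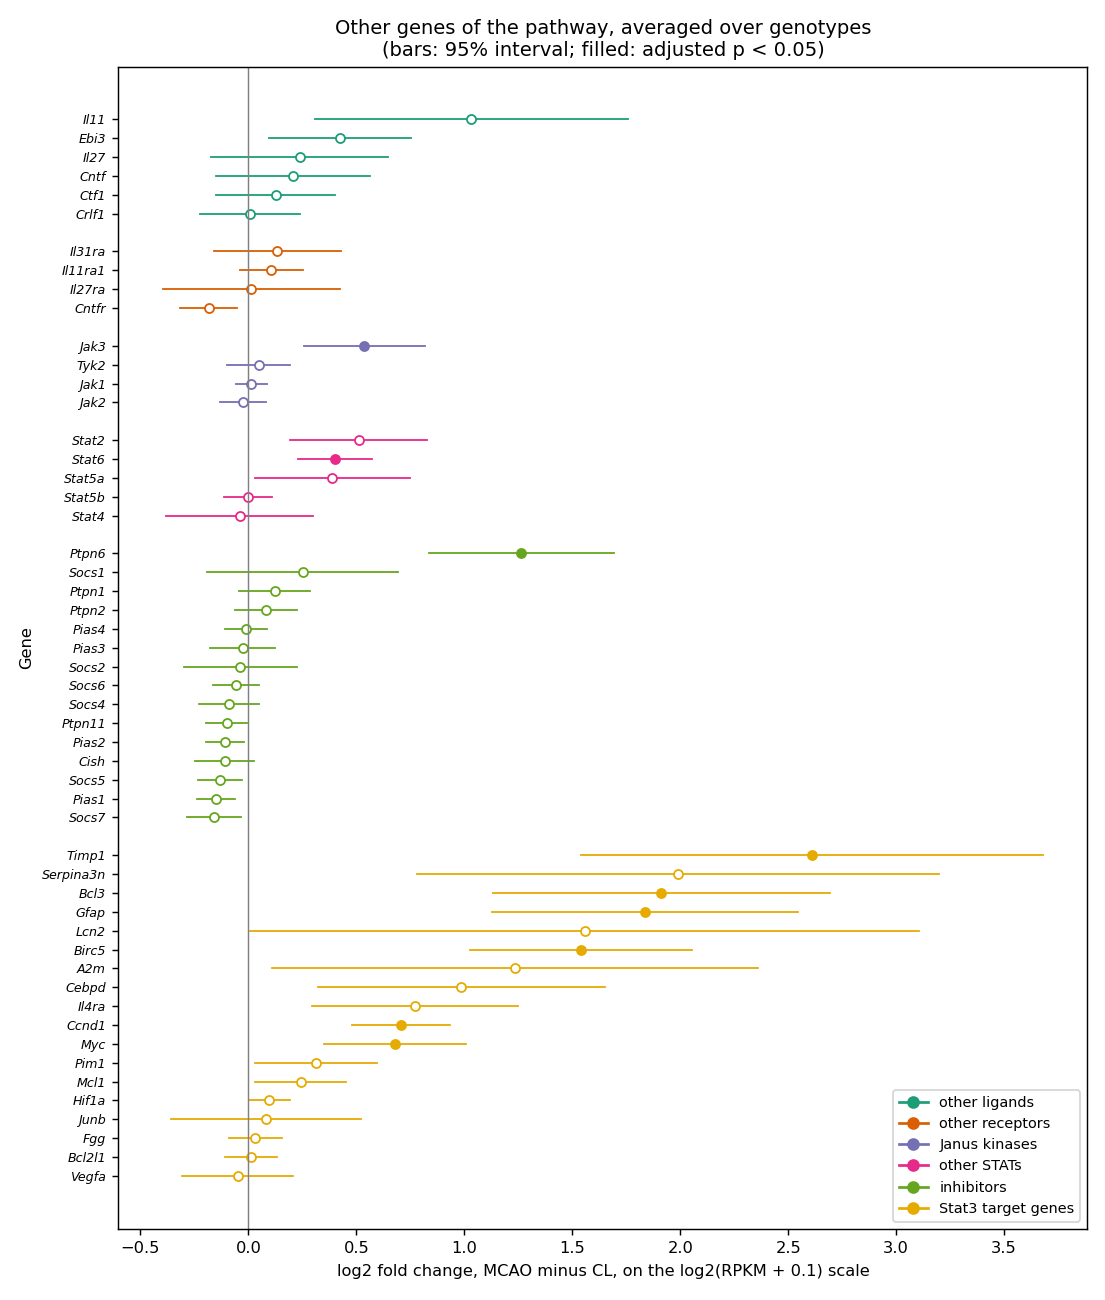
Averaged log2 fold change between MCAO and CL hemispheres (horizontal axis, log2(RPKM + 0.1) scale) of 52 other genes of the pathway, coloured by role, with 95% intervals as bars and filled points at an adjusted p under 0.05. The 9 filled points are all to the right of 0, and 6 of them are Stat3 target genes.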

How the data were processed

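RNA from the hemispheres of 14 samples was sequenced as polyA-selected, strand-preserving libraries. The authors aligned the reads to GRCm39 with the reanalyzerGSE pipeline and the GENCODE M28 annotation, and deposited RPKM values per gene and library, without pooling; gene lengths and library scaling are not given in the sources used here. Per the methods, replicates that did not group clearly were dropped from comparisons with large variability, so the spread between libraries may be understated.

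Library sizes and gene lengths that turn all 495656 values above 0 into whole reads (within 0.01 read, 100%) were recovered, and the counts serve for depth, for intervals and for limma voom. With 3 to 5 libraries per group, depth sets the precision of low genes only. By name or Ensembl identifier, 46792 of 46904 genes matched GENCODE M39. No libraries were duplicates.

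Log2(RPKM + 0.1) values of the 46102 genes above 0 in at least 2 libraries were fitted with limma (1 model of 4 groups, variances moderated with a trend), giving 6 contrasts with Benjamini-Hochberg adjustment over all genes. In simulated data this fit called more unchanged genes than an adjusted p of 0.05 implies, so the printed counts of calls may hold more false calls than that rate. Most of these were genes averaging under 2 reads, which take few discrete values. They made up 47 of the 1579 genes called in the averaged comparison and 27 of 792 in Cort-/- mice, but 1 of 5 in Cort+/+ mice, 1 of 7 and 2 of 8 between genotypes in CL and MCAO, and the 1 interaction. All members averaged more than 2 reads. The labels call the libraries independent biological replicates. Whether a CL and an MCAO library came from 1 mouse is not given in the sources used here, and the fit treats all libraries as unpaired.

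Genes, lists, markers and tests were chosen with earlier results of these data known. Named pathway genes are those called in any contrast at a mean of at least 1 RPKM, plus the gene of largest averaged change for each role without a call. Of the genes the rule picks, 1 is not reported here. Birc5, Jak1, Jak2, Tyk2, Junb, Bcl2l1, Hif1a and Vegfa fall outside this rule and were named after their values were seen. Promoters came from RefSeq (GRCm38.p6). Read ratios carry exact intervals. Alternatives were other pseudocounts, filters, scalings, models, library weights, voom, a replicate block and each library left out.

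The fits used limma 3.58.1 in R 4.3.3. Tables and plots used Python 3.11.15 (pandas 2.3.3, numpy 2.4.6, scipy 1.17.1, matplotlib 3.10.9).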

Additional observations from a re-analysis of the deposited data

How the results depend on the processing

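The number of members that passed between MCAO and CL depended on the setting, while the genotype comparisons and the interaction stayed at 0 under every alternative. In Cort+/+ mice it was 0, and 1 (Clcf1) with a pseudocount of 0.01, a mean filter of 0.5 RPKM, TPM, quantile normalization, array weights or voom, and 0 to 2 with 1 library left out. In Cort-/- mice it was 1, and 2 with the mean filter, 4 with voom, and 1 to 2 with 1 library left out. Averaged over genotypes it was 3, and 6 with array weights, 7 with voom, and 1 to 6 with 1 library left out, the highest count without Cort-/- MCAO replicate 3 or Cort+/+ MCAO replicate 4. Of the 53 other pathway genes 6 passed in Cort-/- mice, and 10 with the mean filter or array weights, 11 with voom, 0 in a model of the CL and MCAO groups of that genotype alone, and 0 to 12 with 1 library left out. Voom called 2093 genes of all in the averaged comparison, 1293 in Cort-/- and 57 in Cort+/+ mice. Array weights called 1857, 1058 and 9. The mean filter, which left Osm, Il6 and Lif untested, called 2180, 1290 and 28 of 17476 genes. In Cort+/+ mice the pseudocount of 0.01 called 22 genes of all, TPM 9 and quantile normalization 13. With 1 library left out, 941 to 1913 genes of all were called averaged, 133 to 1191 in Cort-/- and 3 to 160 in Cort+/+ mice. The causes of these shifts were not tested.

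A fit with the replicate number as a block left 0 members and 0 pathway genes called in every comparison, where limma called 0 of all genes between hemispheres. Between hemispheres and for the interaction, the block leaves the libraries whose number has no partner (Cort+/+ CL 1 and MCAO 4, Cort-/- MCAO 4 and 5) without weight. For the genotype comparisons the number was instead a factor shared by both genotypes, and so links different mice. There only Cort-/- MCAO 5 has no weight. Same-numbered CL and MCAO libraries had correlations of their deviations of −0.06, −0.24 and 0.03 in Cort-/- mice, and 0.32 and −0.14 in Cort+/+ mice. Differently numbered libraries ranged from −0.32 to 0.40. In Cort+/+ mice CL 1 with MCAO 3 and CL 3 with MCAO 4 each gave 0.27. In Cort-/- mice CL 1 with MCAO 2, CL 2 with MCAO 4 and CL 3 with MCAO 5 gave 0.23, 0.38 and 0.40. Whether these are hemispheres of 1 mouse under other numbers was not tested, and the main fit takes no pairing into account. Under the block the interaction turned to −0.25 for Il6, −1.01 for Osmr, −0.0327 for Lifr, −0.24 for Stat3 and −0.68 for Socs3, and the MCAO difference between genotypes to −0.0224 for Lifr.

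Signs that changed were all of differences that passed no test. The interaction turned to −0.0002 for Il6 with a pseudocount of 1 and to −0.0213 for Osmr with array weights. Rescaling to TPM turned Lifr to 0.0064 between hemispheres of Cort-/- mice and to 0.0155 between genotypes in CL. With 1 library left out, the interaction ranged from −0.50 to 0.31 for Osm, −0.18 to 0.17 for Il6, −0.28 to 0.18 for Lif, −0.29 to 0.47 for Osmr, −0.34 to 0.0266 for Il6ra, −0.0543 to 0.10 for Il6st, −0.0119 to 0.15 for Lifr and −0.0947 to 0.67 for Socs3. The genotype difference in MCAO ranged from −0.21 to 0.59 for Osm, −0.28 to 0.0716 for Il6, −0.0936 to 0.27 for Il6ra and −0.0146 to 0.0894 for Lifr, and that in CL from −0.43 to 0.0638 for Clcf1, −0.11 to 0.0492 for Lifr and −0.0487 to 0.27 for Stat3. Lifr between hemispheres of Cort-/- mice ranged from −0.11 to 0.0499. Depth limits Il6 and Osm, which rest on few reads.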
